A study of Mus musculus with 18 samples.

Results

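The nuclear genes of the mitochondrial respiratory chain were followed in mouse monocytes that were cultured with GM-CSF and either could or could not form STAT5 tetramers. Members were taken by symbol, ignoring case: names that begin with Ndufa, Ndufb, Ndufc, Ndufs, Ndufv, Uqcr or Atp5, names with Cox followed by a digit from 4 to 8, and the succinate dehydrogenase genes Sdha, Sdhb, Sdhc and Sdhd, leaving out symbols that contain -ps. The rule found 90 of the 20298 genes in the expression table. These were 7 core subunits, 29 accessory subunits and 8 assembly factors of complex I, 4 genes of complex II, 8 of complex III, 17 of complex IV, 15 of complex V, and 2 genes whose names begin with Atp5 but which are not ATP synthase subunits (Atp5s and Atp5sl). The rule reads symbols and no expression value. None of the 90 lies on chromosome X. Ndufa1, Ndufb11 and Cox7b, whose symbols would fit the rule, are not among them, so the sets of complexes I and IV are not complete.

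The labels give the strain of all samples as C57BL/6, and the methods give the background of the mutant mice as C57BL/6J. Wild-type (WT) mice were compared with Stat5a and Stat5b double knock-in (DKI) mice, whose altered N-terminal domains leave STAT5 dimers intact but prevent tetramers. Monocytes labelled Ly6C+ CCR2+ were untreated on day 0 or received 20 ng/mL GM-CSF until day 3 or day 6. The 6 groups of genotype and day had 3 libraries each, 18 in all, which the study describes as combined from 3 independent experiments. The cultures were enriched by negative selection and not sorted to a single cell type. Because the RNA came from whole cultures, fewer cells of a type and less RNA per cell cannot be told apart.

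The respiratory chain of the inner mitochondrial membrane passes electrons from NADH (through complex I) and from succinate (through complex II) by way of coenzyme Q, complex III and cytochrome c to oxygen at complex IV. Complexes I, III and IV pump protons, and complex V, the ATP synthase, uses the resulting gradient to make ATP. Most subunits are encoded in the nucleus, but the mitochondrial genome encodes essential subunits of every complex except complex II, which is also an enzyme of the tricarboxylic acid (TCA) cycle. Macrophages and dendritic cells adjust their use of oxidative phosphorylation as they differentiate and when they are activated.

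The libraries held an estimated 29.5 M to 43.2 M reads (median 36.45 M), so that 3 reads on a 1 kb transcript corresponded to at most 0.1015 RPKM, the authors' read count scaled to transcript length and library size. Within a group, libraries correlated across all genes at Pearson's r of 0.963 to 0.989 on the log2(RPKM + 1) scale, a description across genes that are not independent replicates. The labels give the tissue as liver, whereas the study's methods describe bone marrow. The 4 hepatocyte markers summed to at most 0.047 RPKM in any library, with Alb, Ttr and Cps1 listed at 0 in all 18. The summed level of 6 markers of monocyte-derived dendritic cells (moDCs) was 10897 to 11989 RPKM in WT and 679 to 2347 RPKM in DKI on day 3, and 7093 to 12077 against 1166 to 4017 RPKM on day 6. The 6 macrophage markers summed to 259 to 632 RPKM in WT and 1762 to 3800 RPKM in DKI on day 3, and to 313 to 642 against 1314 to 4211 RPKM on day 6. On day 0, 6 genes of neutrophils and their precursors summed to 859 to 1225 RPKM over both genotypes, and on day 3 to 4.04 to 515 RPKM. The 6 monocyte markers summed to 775 to 1190 RPKM in WT and 1545 to 2589 RPKM in DKI on day 3, and to 712 to 1153 against 1696 to 4550 RPKM on day 6. The part of these cell markers in the differences below was not tested.

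Some libraries stood apart. DKI replicate 1 on day 3 held the lowest of the 6 day 3 values for 67 of the 81 members that could be fitted (82.7%), against 48.2% of all genes fitted. In DKI replicate 3 on day 6, Cox6a2, the heart and skeletal muscle isoform of a complex IV subunit, was at 34.5 RPKM, whereas it did not exceed 2.24 RPKM in any other library. Cox6a2 passed the limit for fitting on day 6 only through this library and so entered the day 6 median of complex IV. Its exons share 70 bases with Itgad, and the part of those bases in the value was not tested. By their names, the first replicates of days 3 and 6 date from a year before the rest. Several medians and counts below are also given without 1 or more libraries.

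In these cells most subunit genes were abundant. The mean over 18 libraries was above 50 RPKM for 50 members and above 100 RPKM for 26, with a median member at 58.7 RPKM. The highest levels belonged to Cox4i1, the ubiquitous isoform of complex IV subunit 4, at a mean of 463 RPKM, and to Atp5b, the catalytic beta subunit of ATP synthase, at 462 RPKM. Next came the alpha subunit Atp5a1 at 328 RPKM, Cox6b1 of complex IV at 308 RPKM and Atp5g3, a gene for the membrane ring of ATP synthase, at 292 RPKM. The highest complex III genes were Uqcrh, the hinge protein, at 187 RPKM, the small subunit Uqcrq at 154 RPKM and Uqcr10 at 129 RPKM. Among genes named for complex I the highest were Ndufa3 at 186 RPKM, Ndufb8 at 153 RPKM and Ndufa4 at 137 RPKM, the last of which is now counted as a subunit of complex IV. The complex I assembly factors, which help to build the complex but do not stay in it, were lower, between means of 2.79 and 18.9 RPKM.

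A number of members were low. Group means did not exceed 2 RPKM in any group for 8 members, so 82 of 90 entered at least 1 of the fits. Tissue isoforms of complex IV accounted for part of these: Cox7b2 and Cox8c were listed at 0 in all libraries, the muscle isoform Cox8b did not exceed 0.131 RPKM, and Cox4i2, the lung isoform of subunit 4, did not exceed 0.745 RPKM. Uqcr11, Sdhd, Cox7c and Atp5g2 encode subunits that every cell with mitochondria uses, yet Uqcr11 was listed at 0 in 17 libraries, Sdhd did not exceed 0.717 RPKM, Cox7c 2.04 RPKM and Atp5g2 1.24 RPKM. Cytochrome c, encoded by Cycs, was likewise at a mean of 1.03 RPKM, and Ndufab1, the mitochondrial acyl carrier protein, at 1.65 RPKM. For these genes the listed values are taken as uncertain. In GENCODE transcripts, 24 of the 90 members had a stretch of at least 95% identity to another gene, among them Cox7c, Ndufab1, Atp5g1 and Cox7a2l, and 25 shared exon bases with another coding gene. Reads of such genes could be split or dropped in counting, and the effect on the levels was not tested.

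**Figure D1:**
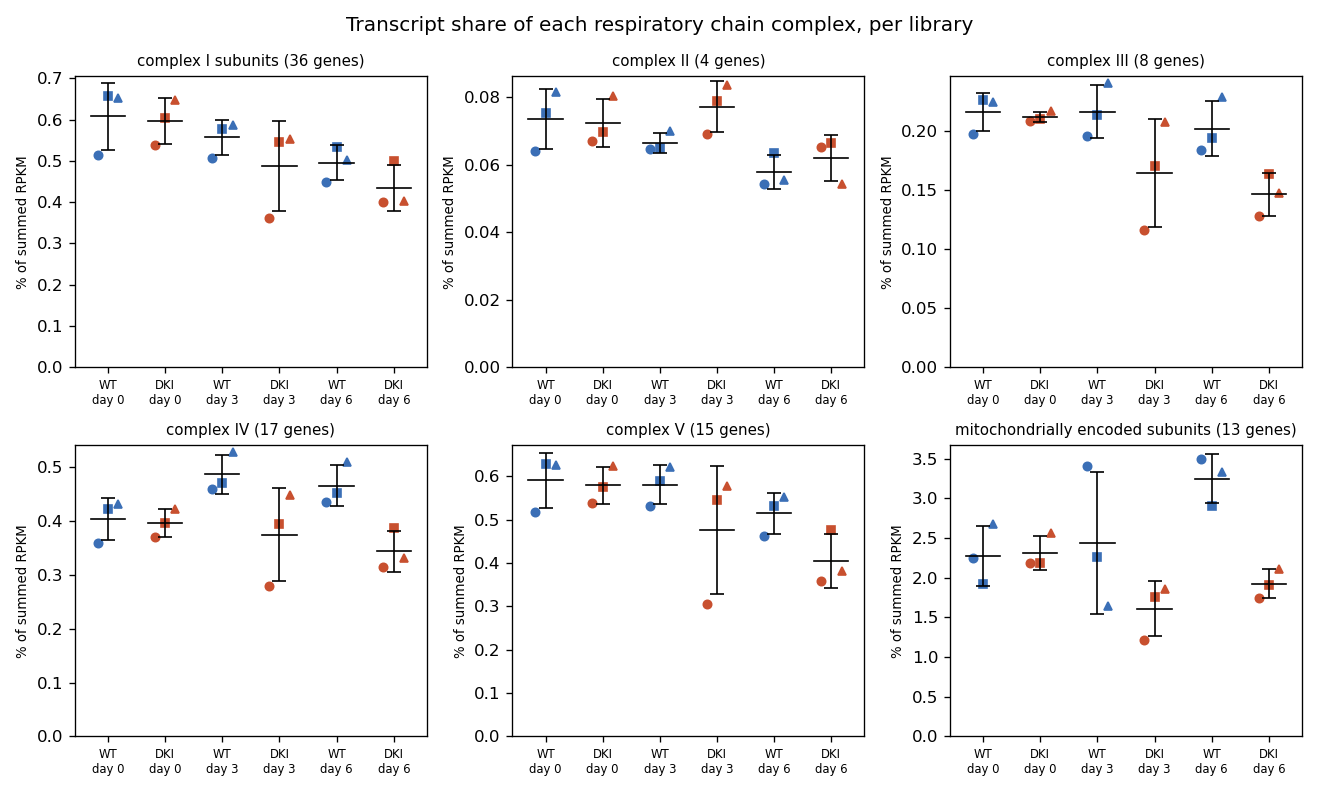
Percent of the summed RPKM of all genes contributed by each complex (vertical axes, from 0) in the 6 groups of genotype and day (blue, WT; red, DKI). Circles, squares and triangles are replicates 1, 2 and 3, and bars are the mean and SD of 3 libraries. On day 6 the DKI libraries lie below the WT libraries for complexes III and IV and for the mitochondrially encoded subunits, while complex II overlaps.

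The members together made up 1.92% ± 0.208 (SD, n = 3) of summed RPKM in WT monocytes and 1.88% ± 0.133 in DKI monocytes on day 0. With GM-CSF for 3 days the share was 1.93% ± 0.144 in WT and 1.60% ± 0.396 in DKI, with DKI libraries at 1.15%, 1.75% and 1.89%. By day 6 the members' share stood at 1.76% ± 0.135 in WT and 1.41% ± 0.176 in DKI, where WT libraries were at 1.60%, 1.79% and 1.87% and DKI libraries at 1.28%, 1.61% and 1.33%. The ranges of the genotypes overlapped on every day for the whole set, narrowly so on day 6. In each same-numbered pair of libraries DKI had the lower share on day 3 and on day 6, but not on day 0. By complex, the day 6 libraries separated for complex III, at 0.184% to 0.229% in WT and 0.128% to 0.164% in DKI, and for complex IV, at 0.436% to 0.509% in WT and 0.315% to 0.387% in DKI. They overlapped for complex V, at 0.461% to 0.553% against 0.357% to 0.476%, for complex I subunits, at 0.450% to 0.534% against 0.401% to 0.499%, and for complex II, at 0.0544% to 0.0635% against 0.0542% to 0.0665%. In complex V and complex I subunits DKI was the lower in each same-numbered pair on day 6, whereas in complex II the direction differed between pairs. These shares are descriptions, and no test was made on them.

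The first comparison asked whether the genotypes differed before GM-CSF. Of 77 members fitted on day 0, none was called between DKI and WT. A gene was called at a fold change above 1.5 and a limma p, adjusted by Benjamini and Hochberg's method over all genes fitted, under 0.05. The share called among all genes fitted was 0%. None of the 77 had an unadjusted p under 0.05, against 0.479% of all genes. With replicate number as a block there was 1, against 3.83%. The median log2 difference of the members was -0.01, and the single differences ran from -0.19 to 0.22. The direction of this median turned with single libraries, since it was -0.13 with 72 of 77 members below 0 without WT replicate 1 and 0.05 with 15 of 77 below 0 without WT replicate 3. The smallest unadjusted p was that of the complex I accessory subunit Ndufa12, at 10.7, 16.1 and 13.2 RPKM in WT and 13.1, 17.7 and 15.9 RPKM in DKI, where the groups overlapped (log2 difference 0.22, SE 0.19). DKI was the higher in each same-numbered pair, and the adjusted p with the block was 0.902.

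On day 3, most members had lower values in DKI than in WT, but none passed the test. The log2 difference was below 0 for 73 of 81 members fitted (90.1%), against 61.4% of all 9740 genes fitted, and its median was -0.29 for the members and -0.11 for all genes. No member was called, against 7.42% of all genes, by limma. At an unadjusted p under 0.05 there were 9 members (11.1%), against 26.5% of all genes, and with all 18 libraries in 1 fit there were 21 of 81, against 29.7%. The 2 groups of 3 libraries did not overlap, with DKI lower, for 23 members (28.4%), against 22.9% of all genes. Without DKI replicate 1, the difference was below 0 for 57 of 80 members and its median was -0.12, with -0.03 for all genes. Without replicate 1 of both genotypes it was below 0 for 67 of 80, with a median of -0.18 and -0.04 for all genes. Single omissions of other libraries gave member medians from -0.41 to -0.23, and 2 to 15 members at an unadjusted p under 0.05.

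On day 6, a single member was called. The log2 difference was below 0 for 66 of 78 members (84.6%), against 66.5% of all 9842 genes, with a median of -0.25 for the members and -0.17 for all genes. The called gene was Cox7a2l, lower in DKI, against 7.54% of all genes called. An unadjusted p under 0.05 was seen for 21 members (26.9%), against 28.2% of all genes. This count moved with the libraries used. It was 3 of 81 without replicate 1 of both genotypes (17.8% of all genes), and between 10 of 78 without WT replicate 3 (19.5%) and 26 of 79 without DKI replicate 2 (32.1%) when 1 library was left out. With library centring it was 10 of 78 (25.8%). For 31 members (39.7%) all DKI libraries lay below all WT libraries, against 26.6% of all genes. Centring each library on its median moved the median of all genes from -0.17 to -0.02 and that of the members from -0.25 to -0.11, with 52 of 78 members below 0. Without DKI replicate 3, 63 of 79 members were below 0 and the median was -0.19, with -0.13 for all genes.

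Both days together, 65 of the 77 members fitted on each were below 0 on both. The same count was not made over all genes, of which 61.4% were below 0 on day 3 and 66.5% on day 6. For 19 of the 77 members (24.7%) the groups did not overlap on either day, DKI being lower, against 15.8% of all genes. The 19 comprised 8 genes named for complex I and its assembly, 2 of complex III, 4 of complex IV (Cox5a, Cox6a1, Cox6b2 and Cox7a2l), 4 of complex V and Atp5sl.

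**Figure D2:**
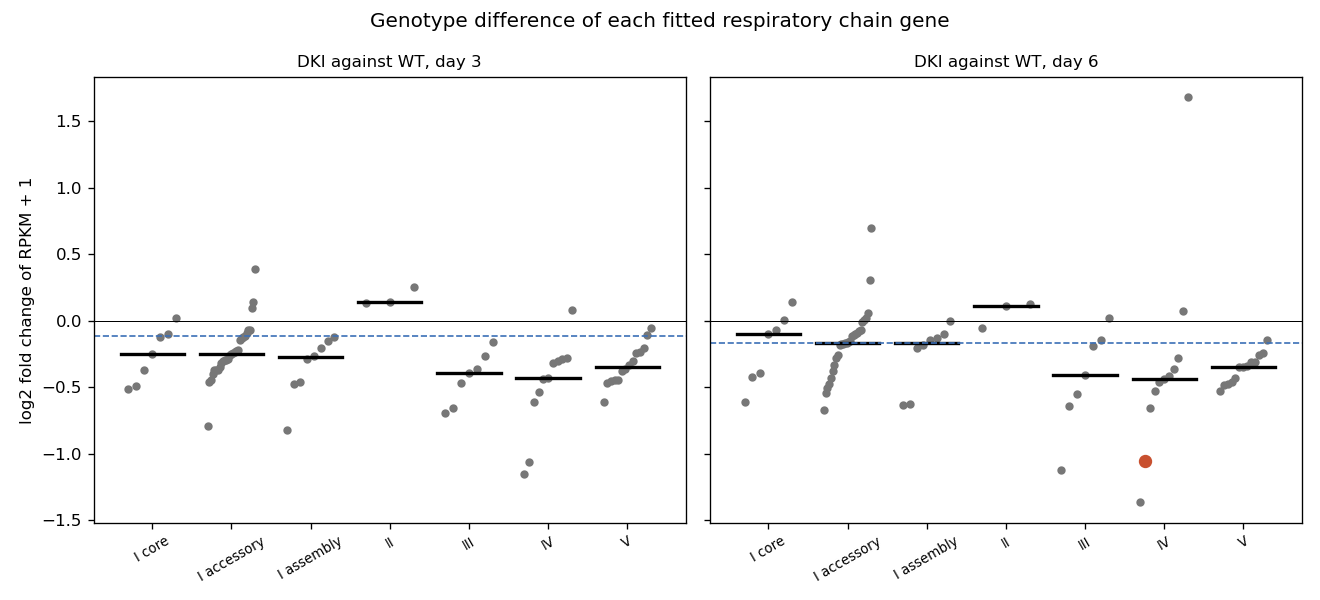
Log2 fold change of RPKM + 1, DKI against WT (vertical axis), of each fitted gene by complex on day 3 (left) and day 6 (right). Grey points are genes that were not called, the larger red point on day 6 is Cox7a2l, black bars are medians of each class, and the dashed blue line is the median of all genes fitted (-0.11 and -0.17). The medians of complexes III, IV and V lie below the dashed line on both days and that of complex II above it, and the day 6 median of complex I core subunits turns positive when libraries are centred.

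The complexes differed in size and direction. On day 3 the median log2 difference between DKI and WT was -0.40 in complex III, with 7 of 7 fitted genes below 0, -0.43 in complex IV, with 10 of 11, and -0.35 in complex V, with 14 of 14. It was -0.25 in both the core and the accessory subunits of complex I, with 6 of 7 and 26 of 29 genes below 0, and -0.27 in the complex I assembly factors, with 8 of 8. Complex II went the other way at 0.14, with 3 of 3 fitted genes above 0. On day 6 the medians were -0.41 in complex III, -0.44 in complex IV and -0.34 in complex V, where 13 of 13 genes were below 0. Complex II was at 0.12, with 2 of 3 genes above 0, and ran from 0.03 without DKI replicate 1 to 0.22 without DKI replicate 3 when 1 library was left out, and was 0.26 with library centring. Complex I core subunits were at -0.10 on day 6, which became 0.05 with library centring and 0.04 with quantile normalization, and accessory subunits and assembly factors were each at -0.16, which became -0.02 with centring. With 1 library left out, core subunits ran from -0.31 without DKI replicate 2 to -0.06 without DKI replicate 3, accessory subunits from -0.27 without DKI replicate 2 to -0.07 without WT replicate 2, and assembly factors from -0.22 without DKI replicate 2 to -0.10 without DKI replicate 3. Complex V was at -0.52 without DKI replicate 2. The other medians kept their signs under both scalings, and centring moved those of complexes III and V on day 6 to -0.26 and -0.20. Without DKI replicate 1, the day 3 medians were -0.24, -0.25 and -0.11 in complexes III, IV and V and 0.28 in complex II, and complex I core subunits, accessory subunits and assembly factors were at -0.09, -0.08 and -0.14. Complex II was at 0.07 on day 3 without DKI replicate 3, and without WT replicate 3 the accessory subunits and complex IV were at -0.17 and -0.28. Classes followed the gene names. Ndufa4 and its relative Ndufa4l2 were therefore counted among the accessory subunits and not in complex IV, and both had higher group means in DKI on both days. None of these differences between complexes was tested.

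Promoter windows from RefSeq (GRCm38.p6) were available here for 74 of the 90 members and were searched on both strands, from 250 bases before to 50 after the start. The letters GCGCANGC, read by the factor NRF1, stood in 26 of 74 (35.1%), against 11.2% of 27025 genes and 23.9% of the 8264 genes above 2 RPKM in at least 1 group. CCGGAAG, read by ETS factors such as GABPA, stood in 18 (24.3%, against 9.93% and 22.1%), and AAGATGGC, read by YY1, in 12 (16.2%, against 3.19% and 5.63%). TCAAGGTCA, read by estrogen-related receptors, stood in 2 (2.7%, against 0.466% and 0.29%). TTCNNNGAA, the palindrome read by STAT proteins, stood in 5 (6.76%, against 9.55% and 8.26%). The study describes STAT5 tetramers as able to bind weaker sites outside this consensus when suitably spaced. This search cannot find such sites. By complex, the NRF1 letters were in 8 of 14 windows of complex V, 3 of 3 of complex II and 1 of 12 of complex IV. The 250 bases before the start are shown for 3 genes, the member called on day 6 (Cox7a2l), a complex III gene that was lower in all DKI libraries on day 6 (Uqcrh) and a complex II gene that was higher in all DKI libraries on day 3 (Sdhb). Capitals mark a match to one of the 5 motifs, and none was found in the Cox7a2l window.
Cox7a2l, chr17:83514334-83514583, minus strand: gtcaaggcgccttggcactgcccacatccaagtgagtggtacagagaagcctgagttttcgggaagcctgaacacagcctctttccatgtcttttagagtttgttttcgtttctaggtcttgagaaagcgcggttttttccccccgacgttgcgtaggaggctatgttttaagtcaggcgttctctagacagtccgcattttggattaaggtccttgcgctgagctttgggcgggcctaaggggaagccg
Uqcrh, chr4:116075071-116075320, minus strand: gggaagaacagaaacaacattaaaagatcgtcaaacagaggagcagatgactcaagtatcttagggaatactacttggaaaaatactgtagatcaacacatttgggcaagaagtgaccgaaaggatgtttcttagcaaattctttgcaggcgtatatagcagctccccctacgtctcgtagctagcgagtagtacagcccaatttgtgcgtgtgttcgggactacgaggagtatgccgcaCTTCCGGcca
Sdhb, chr4:140961021-140961270, plus strand: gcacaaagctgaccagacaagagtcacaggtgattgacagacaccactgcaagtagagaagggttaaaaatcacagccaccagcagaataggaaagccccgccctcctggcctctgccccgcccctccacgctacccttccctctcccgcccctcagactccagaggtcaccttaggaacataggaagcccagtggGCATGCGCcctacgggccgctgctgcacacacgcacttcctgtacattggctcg
The capitals in Uqcrh are the ETS letters read on the opposite strand, with the first capital at -10, and those in Sdhb the NRF1 letters, also read on the opposite strand, with the first capital at -54, counted from -1 at the base before the start. A match to letters is a description of the sequence and not of binding.

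The one member called between genotypes was Cox7a2l (Entrez Gene 20463, chr17:83501917-83514333 in GRCm38.p6, minus strand), named as a relative of the complex IV subunit 7a. On day 0 it was at 58.8, 59.2 and 68.8 RPKM in WT replicates 1, 2 and 3 and at 54.9, 59.7 and 60.0 RPKM in DKI. On day 3 it was at 143, 92.4 and 123 RPKM in WT and 50.5, 42.1 and 81.1 RPKM in DKI. On day 6 it was at 139, 102 and 155 RPKM in WT and 51.8, 64.4 and 72.1 RPKM in DKI. On both days with GM-CSF all WT libraries were above all DKI libraries, and above the day 0 libraries of either genotype. The log2 difference on day 6 was -1.05 (SE 0.22, adjusted p = 0.0425). With replicate number as a block the adjusted p was 0.0523 and the gene was not called, and it ranged from 0.00647 to 0.241 over all alternatives. The call was lost in 10 of 13 alternatives, among them those without WT replicate 1 (adjusted p = 0.141) or WT replicate 3 (0.144) and without DKI replicate 1 (0.0895), 2 (0.0608) or 3 (0.0912). The log2 difference kept its sign in all 13, between -1.23 and -0.88. On day 3 the difference was -1.06 (SE 0.29, adjusted p = 0.0825). Part of the Cox7a2l transcript is identical to a processed pseudogene, Gm6969, and the part of this copy in the counted reads was not tested.

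**Figure D3:**
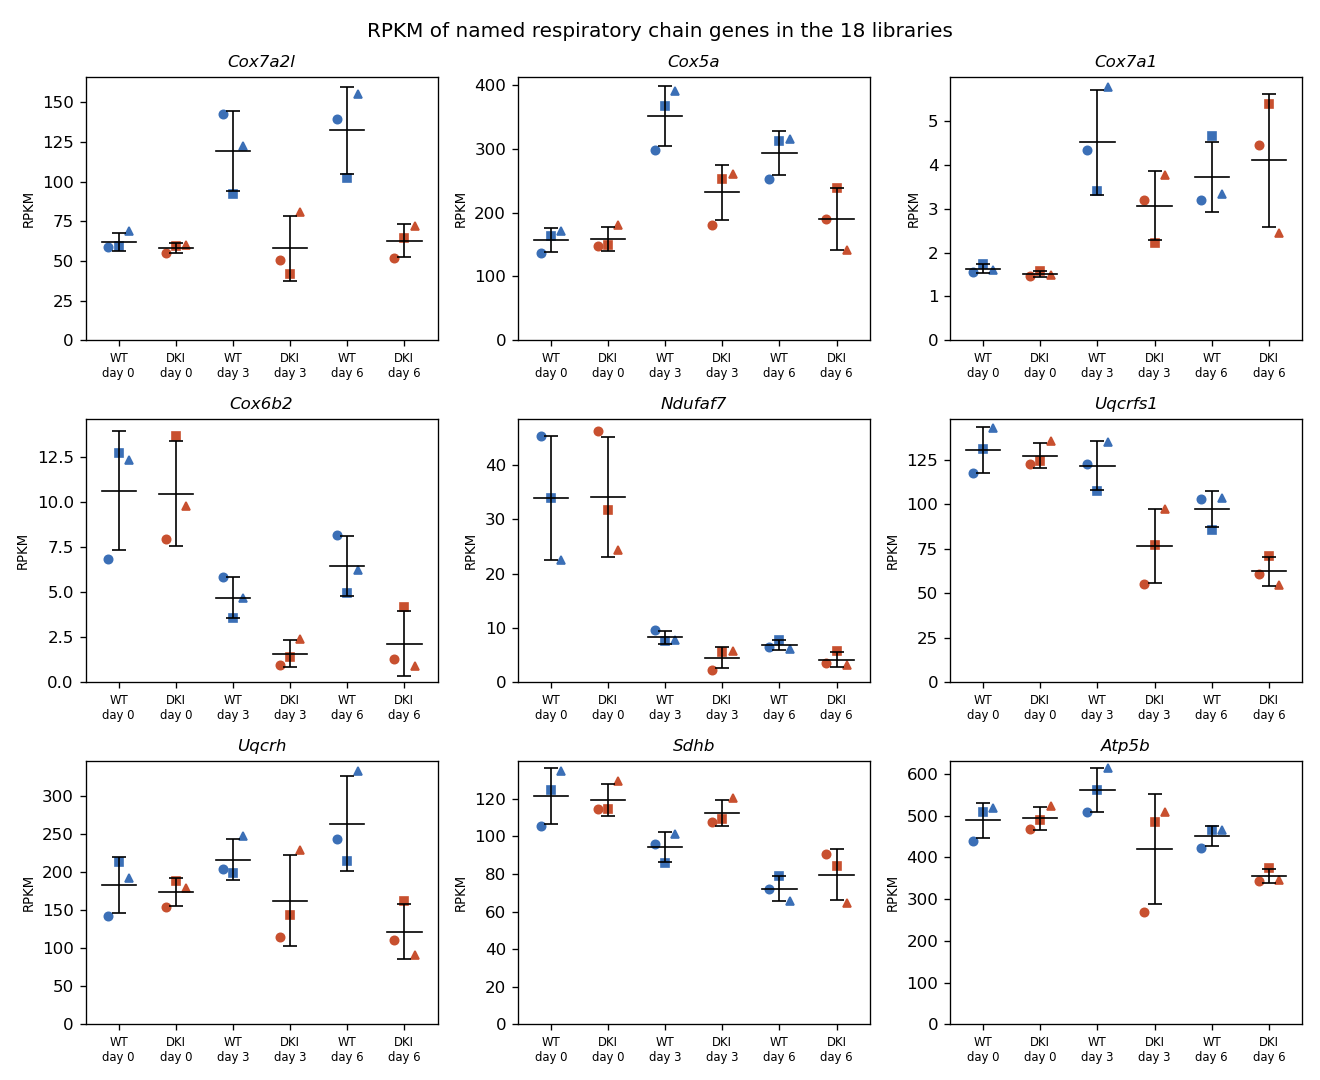
RPKM (vertical axes, from 0) of 9 named genes in the 18 libraries by group (blue, WT; red, DKI). Circles, squares and triangles are replicates 1, 2 and 3, and bars show the mean and SD of 3 libraries. Cox7a2l was higher in all WT libraries with GM-CSF than on day 0 while DKI libraries stayed between 42.1 and 81.1 RPKM, and Ndufaf7 was below 10 RPKM in every library with GM-CSF.

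Other complex IV genes also had lower values in DKI without passing the test. Cox6b2, the testis isoform of subunit 6b, had the smallest p of any member on day 3. It was at 5.82, 3.56 and 4.68 RPKM in WT and 0.968, 1.43 and 2.39 RPKM in DKI, with no overlap (log2 difference -1.15, SE 0.27, adjusted p = 0.0535). On day 6 the values were 8.19, 4.94 and 6.23 RPKM against 1.32, 4.20 and 0.909 RPKM, again without overlap (log2 difference -1.37, SE 0.40, adjusted p = 0.0839). On day 3 Cox6b2 was called under quantile normalization (adjusted p = 0.0446) and when all 18 libraries shared a fit (0.0395), but not with the replicate block (0.0877).

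Cox5a, a subunit that every cell uses, was at 298, 366 and 389 RPKM in WT and 181, 253 and 260 RPKM in DKI on day 3, and at 253, 312 and 314 RPKM against 189, 238 and 141 RPKM on day 6. All WT libraries were above all DKI libraries on both days (log2 differences -0.61 and -0.65, adjusted p = 0.155 and 0.137). The liver-type isoform Cox6a1 was at 302, 293 and 320 RPKM in WT and 174, 226 and 234 RPKM in DKI on day 3 (log2 difference -0.54, adjusted p = 0.142). Cox4i1 overlapped on day 3, at 525, 451 and 545 RPKM in WT and 318, 415 and 509 RPKM in DKI. It was at 561, 466 and 545 RPKM in WT and 362, 413 and 402 RPKM in DKI on day 6 (log2 difference -0.41, adjusted p = 0.189). Cox6b1 and Cox8a were between -0.46 and -0.29 on the log2 scale on days 3 and 6, with adjusted p from 0.243 to 0.505. Muscle-type Cox7a1 was low, at 3.20, 4.64 and 3.34 RPKM in WT and 4.46, 5.39 and 2.45 RPKM in DKI on day 6, with overlap and a log2 difference of 0.07. Cox7a2, the ubiquitous isoform of the same subunit, was listed between 0.132 and 4.51 RPKM with no separation of the groups. Ndufa4 had higher group means in DKI. It was at 87.0, 127 and 123 RPKM in WT and 104, 190 and 154 RPKM in DKI on day 3, and at 50.1, 99.2 and 42.0 RPKM against 97.6, 152 and 61.9 RPKM on day 6, with overlapping groups on both days (log2 differences 0.39 and 0.70, adjusted p = 0.418 and 0.330). In each same-numbered pair of libraries on both days DKI was the higher, and with replicate number as a block the adjusted p were 0.223 and 0.0659. Its relative Ndufa4l2, known as a hypoxia-induced gene, was at 1.34 to 4.19 RPKM over all libraries, with log2 differences of 0.14 and 0.31 that did not pass.

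In complex III, Uqcrfs1, the Rieske iron-sulphur protein, was at 122, 107 and 135 RPKM in WT and 55.3, 77.1 and 97.1 RPKM in DKI on day 3, and at 103, 85.5 and 103 RPKM against 61.1, 71.0 and 54.9 RPKM on day 6. The groups did not overlap on either day, and the log2 differences were -0.69 (SE 0.24, adjusted p = 0.135) and -0.64 (SE 0.17, adjusted p = 0.0697). Uqcrh overlapped on day 3, at 204, 199 and 247 RPKM in WT and 115, 143 and 229 RPKM in DKI. On day 6 it was at 244, 214 and 333 RPKM against 111, 162 and 91.7 RPKM with no overlap (log2 difference -1.12, SE 0.28, adjusted p = 0.0599). Uqcr10 overlapped on day 3, at 136, 192 and 195 RPKM in WT and 73.0, 121 and 146 RPKM in DKI. It was at 132, 152 and 177 RPKM in WT and 100, 118 and 94.3 RPKM in DKI on day 6 (log2 difference -0.55, adjusted p = 0.109), whereas Uqcrq overlapped on that day (log2 difference 0.02).

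The fitted ATP synthase genes also had log2 differences below 0 on both days, none of which passed the test. Atp5b was at 509, 561 and 613 RPKM in WT and 270, 486 and 508 RPKM in DKI on day 3, where DKI replicate 1 was well under the other libraries and the remaining ranges nearly met (log2 difference -0.46, SE 0.30, adjusted p = 0.372). Its values were 423, 465 and 465 RPKM against 344, 375 and 346 RPKM on day 6, without overlap (log2 difference -0.34, SE 0.17, adjusted p = 0.228). Atp5a1 was at 339, 303 and 332 RPKM in WT and 220, 265 and 218 RPKM in DKI on day 6 (log2 difference -0.48, SE 0.17, adjusted p = 0.132). Of the genes for the c subunit of the membrane ring, Atp5g3 overlapped between genotypes on both days, with 245, 299 and 334 RPKM in WT and 206, 295 and 196 RPKM in DKI on day 6. Atp5g1 and Atp5g2 did not exceed 3.44 and 1.24 RPKM in any library.

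In complex II no fitted gene was lower in DKI on day 3. Sdhb, the iron-sulphur subunit, was at 95.9, 85.9 and 101 RPKM in WT and 108, 109 and 121 RPKM in DKI on day 3, all DKI libraries being higher (log2 difference 0.25, SE 0.15, adjusted p = 0.344), and overlapped on day 6 (log2 difference 0.13, adjusted p = 0.672). Sdha, the flavoprotein that oxidises succinate, was at 87.9, 91.7 and 88.0 RPKM in WT and 99.9, 87.8 and 109 RPKM in DKI on day 3 (log2 difference 0.14). The membrane anchor Sdhc was at 95.9, 99.0 and 117 RPKM against 91.8, 128 and 126 RPKM (log2 difference 0.14), and both overlapped. Their adjusted p were 0.586 and 0.693. The other anchor, Sdhd, was under the limit for fitting.

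The next comparison followed culture with GM-CSF from day 0 to day 3. In WT, 9 of 80 members were called (11.2%), against 43.1% of all 9938 genes. Of these, 7 were higher on day 3, against 20.3% of all genes called in that direction, and 2 were lower, against 22.8%. At an adjusted p under 0.05 without the fold limit, 14 members passed (17.5%), against 48% of all genes. The median log2 change was 0.14 for the members and -0.05 for all genes. It fell to -0.001 without WT day 0 replicate 1, with 40 of 80 members below 0, to 0.06 without WT day 3 replicate 3 and to 0.04 without replicate 1 of both days. By class it was 0.39 in complex IV, which became 0.19 without WT day 0 replicate 1 or without replicate 1 of both days, 0.26 in the complex I assembly factors, 0.15 in complex I accessory subunits and 0.11 in complex III. Without WT day 0 replicate 1 these last 3 were 0.17, -0.001 and 0.03, and without WT day 3 replicate 3 accessory subunits and complex III were at 0.05 and 0.002. It was 0.05 in both complex II and the complex I core subunits and 0.04 in complex V, and each of these 3 medians was below 0 without WT day 0 replicate 1. That of complex V was 0.20 without WT day 3 replicate 1. Library centring moved the median of all members to 0.23 and that of all genes to 0.03, and those of complex II, the core subunits and complex V to 0.14, 0.13 and 0.13. Without the filter on low values complex IV was at 0.15 and complexes II and V at -0.03 and -0.005.

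Cox5a rose in WT from 136, 163 and 171 RPKM on day 0 to 298, 366 and 389 RPKM on day 3 (log2 change 1.15, SE 0.17, adjusted p = 0.00209). Cox7a1 rose from 1.56, 1.74 and 1.59 RPKM to 4.34, 3.41 and 5.78 RPKM (log2 change 1.04, SE 0.21, adjusted p = 0.00627). Cox7a2l rose by 0.91 on the log2 scale (SE 0.19, adjusted p = 0.00785). In each of these genes all day 3 libraries were above all day 0 libraries. The remaining 4 that rose were the complex I assembly factors Ndufaf4 (0.90) and Ndufaf2 (0.61), the accessory subunit Ndufv3 (0.87) and Atp5s (0.76), all on the log2 scale. Ndufaf7, a methyltransferase that acts on a core subunit during complex I assembly, fell in WT from 45.3, 33.8 and 22.6 RPKM to 9.69, 7.54 and 7.76 RPKM (log2 change -1.86, SE 0.26, adjusted p = 0.00161). Cox6b2 fell from 6.81, 12.7 and 12.3 RPKM to 5.82, 3.56 and 4.68 RPKM (log2 change -1.003, SE 0.27, adjusted p = 0.0202). This call of Cox6b2 was lost in 5 of 13 alternatives, namely with the replicate block (adjusted p = 0.0569), without WT day 3 replicate 2 (adjusted p = 0.0646) or 3 (0.0603), and without WT day 0 replicate 2 (0.0701) or 3 (0.0561).

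In DKI, 5 of 79 members were called from day 0 to day 3 (6.33%), against 34.2% of all 9922 genes. None was higher, against 13.1% of all genes, and 5 were lower, against 21.1%. With library centring 8 were called, 5 higher and 3 lower, and with quantile normalization 4, with 2 in each direction. At an adjusted p under 0.05 alone 7 members passed, against 35.3% of all genes. The median was -0.19 for the members, which became -0.02 with centring, and -0.16 for all genes, which became 0.01. Without DKI replicate 1 of day 3 it was 0.02 for the members, and without DKI replicate 3 of day 3 it was -0.32. In DKI, Ndufaf7 fell from 46.2, 31.7 and 24.3 RPKM to 2.25, 5.57 and 5.81 RPKM (log2 change -2.69, SE 0.36, adjusted p = 0.00366), and Cox6b2 from 7.96, 13.7 and 9.75 RPKM to 0.968, 1.43 and 2.39 RPKM (log2 change -2.15, SE 0.28, adjusted p = 0.00345). Uqcrfs1 fell by 0.76 on the log2 scale (SE 0.23, adjusted p = 0.0447), but this call was lost in 9 of 13 alternatives, and the log2 change was -0.55 without DKI replicate 1 of day 3. The other members called were the iron-sulphur subunit Ndufs8 (log2 change -0.72, adjusted p = 0.0333) and Atp5sl (-0.62, adjusted p = 0.0439), and both calls were lost without DKI day 0 replicate 1 and without DKI day 0 replicate 3. Cox5a was at 147, 150 and 180 RPKM on day 0 and 181, 253 and 260 RPKM on day 3 in DKI (log2 change 0.53, SE 0.22, adjusted p = 0.0997), and Cox7a2l overlapped between these days (log2 change -0.06). Between genotypes, Ndufaf7 was lower in all DKI libraries than in all WT libraries on both days, without being called (log2 differences -0.82 and -0.62, adjusted p = 0.159 and 0.133).

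**Figure D4:**
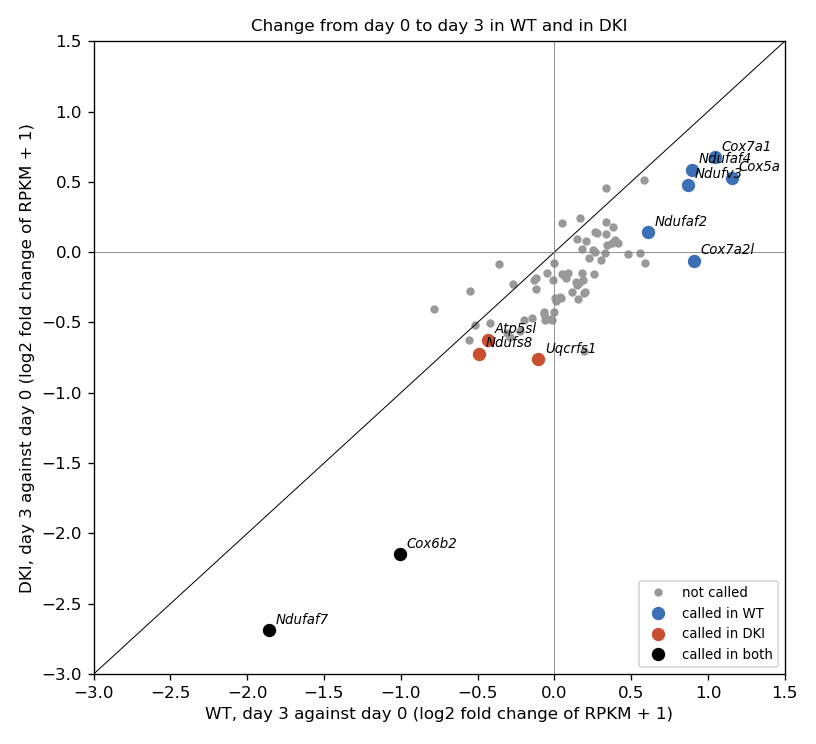
Log2 fold change of RPKM + 1 from day 0 to day 3 in WT (horizontal axis) and in DKI (vertical axis) for the 78 members fitted in both. Blue points were called in WT, red in DKI, black in both and grey in neither, and the diagonal marks equal change. Of the 78, 71 lie below the diagonal, and Ndufaf7 and Cox6b2 fell in both genotypes.

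Whether the 2 genotypes changed differently was tested by the difference between the genotype effects on day 3 and on day 0. None of 81 members was called, against 2.91% of all 10212 genes, and 5 had an unadjusted p under 0.05 (6.17%), against 15.7%. With replicate number as a block there were 9, against 19.6%. The difference was below 0 for 74 of 81 (60.7% of all genes), for 67 of 81 with library centring (52.8%) and for 54 of 80 without DKI day 3 replicate 1 (53.6%). Its median was -0.31 for the members and -0.11 for all genes, and without DKI day 3 replicate 1 these were -0.11 and -0.03. The member median was -0.17 without WT day 0 replicate 1, and the count at an unadjusted p under 0.05 ran from 2 to 12 with 1 library left out, at 12 without DKI day 3 replicate 3. The smallest p belonged to Cox7a2l (log2 difference of differences -0.97, SE 0.33, adjusted p = 0.166). For day 6 against day 0, none of 79 was called, against 2.8% of all 10353 genes, and 12 had an unadjusted p under 0.05 (15.2%), against 17.3%. That count was 17 with the block (20.4% of all genes), 6 with centring (16.1%) and 2 without replicate 1 of all 4 groups (11.9%), and with 1 library left out it ran from 5 without DKI day 6 replicate 3 or WT day 0 replicate 1 to 21 without DKI day 6 replicate 2. Cox7a2l again had the smallest (-0.96, SE 0.25, adjusted p = 0.0707, and 0.0539 with replicate number as a block). The day 0 libraries serve both tests.

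From day 3 to day 6 no gene of the table was called in either genotype (0% of 9613 genes in WT and 0% of 9540 in DKI). Unadjusted p were under 0.05 for 7 of 79 members in WT, against 7.51% of all genes, and for 1 of 80 in DKI, against 0.975%. Replicate numbers paired these days too, and with replicate number as a block there were 16 of 79 in WT, against 12.7%, and 1 of 80 in DKI, against 4.94%. With 1 library left out the WT count ran from 2 of 78 without WT day 3 replicate 3 to 8 of 79 without WT day 6 replicate 2, and it was 0 of 80 without replicate 1 of both days, against 2.72% of all genes. In WT the log2 change was below 0 for 65 of 79 members with a median of -0.18, and -0.03 for all genes, and the member median was -0.12 without WT day 6 replicate 1. In DKI it was below 0 for 64 of 80, with a median of -0.16 and -0.07 for all genes. The DKI median was -0.36 without DKI day 3 replicate 1, with 74 of 80 below 0, and -0.24 without DKI day 6 replicate 2. It was -0.03 without DKI day 3 replicate 3, with 47 of 80 below 0, -0.08 without DKI day 3 replicate 2, -0.09 without DKI day 6 replicate 3 and -0.09 with centring. The smallest p in WT was that of Ndufa9, a complex I accessory subunit, at 66.2, 73.0 and 74.3 RPKM on day 3 and 50.5, 60.4 and 49.4 RPKM on day 6 (log2 change -0.41, adjusted p = 0.632). In DKI it was that of Sdhb, at 108, 109 and 121 RPKM and then 90.5, 84.0 and 64.3 RPKM (log2 change -0.51, adjusted p = 0.999).

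**Figure D5:**
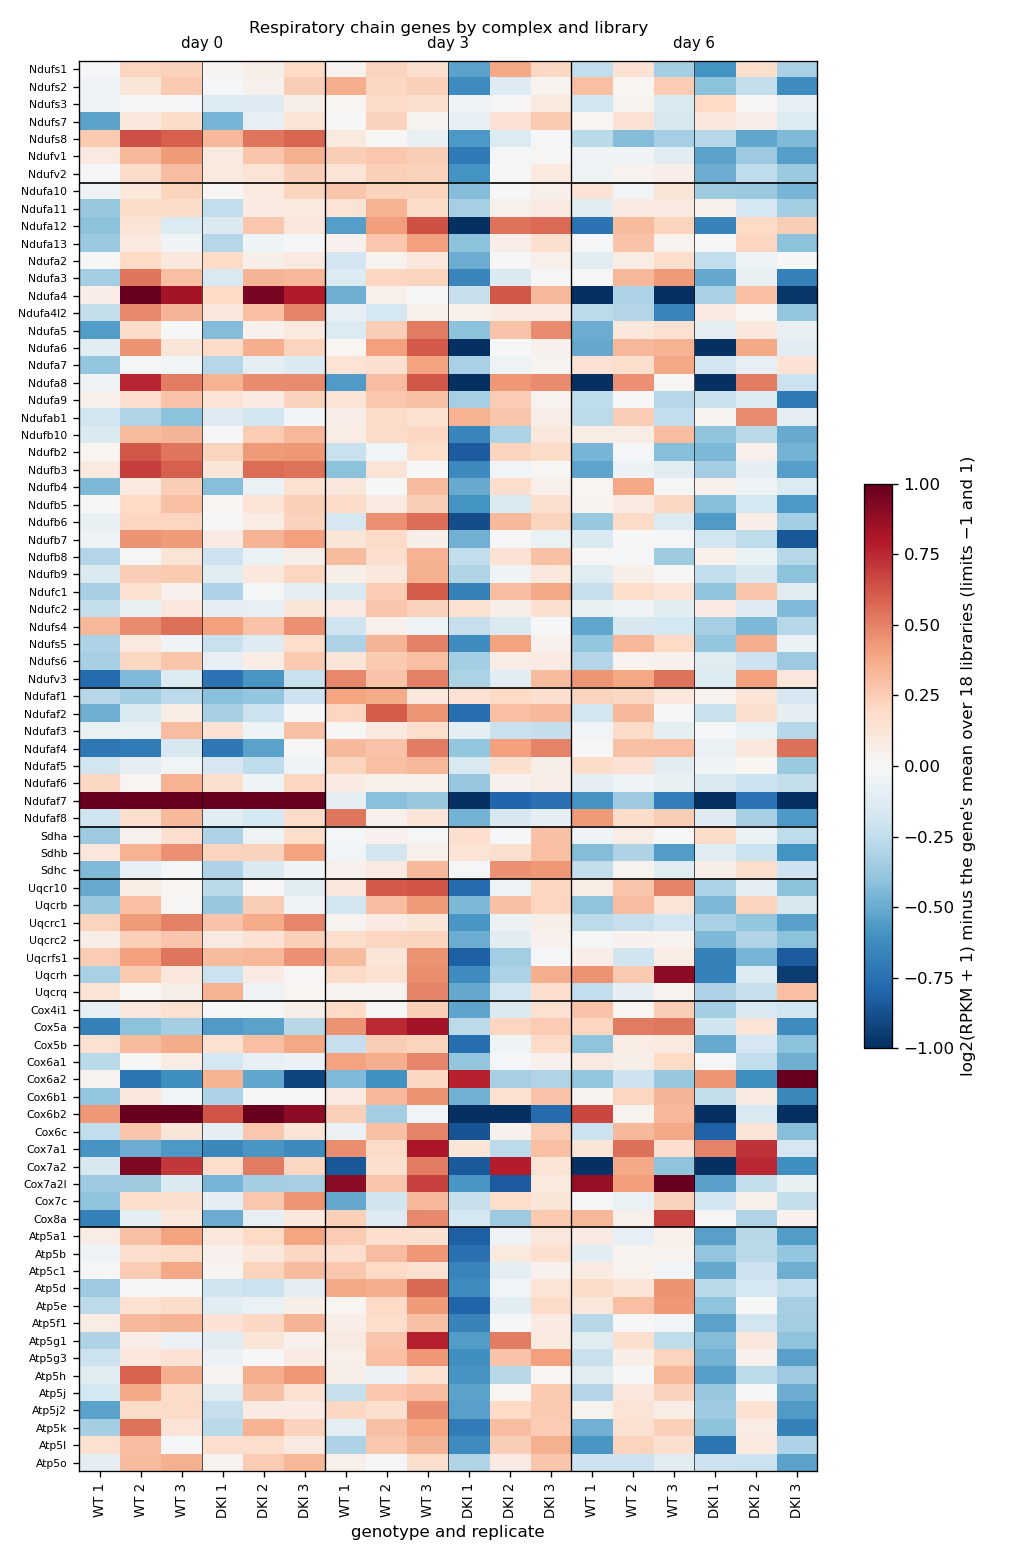
Log2(RPKM + 1) minus the gene's mean over 18 libraries (colour, limited at -1 and 1) for the 81 subunit and assembly genes that exceeded 2 RPKM in at least 1 library, by complex (rows, from complex I core subunits at the top to complex V) and library (columns, by day, genotype and replicate). DKI replicate 1 of day 3 is blue over most rows, and Ndufaf7 is red on day 0 in all 6 libraries.

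Other mitochondrial gene groups gave the counts that follow, to be read against the shares of all genes on day 3 and day 6, 7.42% and 7.54% called and 26.5% and 28.2% at an unadjusted p under 0.05. Idh3g and Pdha1 of the TCA cycle, Timm8a1 and Timm17b of import and Slc25a5 of the carriers were absent from the expression table. The 13 subunits encoded by the mitochondrial genome made up 2.44% ± 0.897 of summed RPKM in WT and 1.61% ± 0.346 in DKI on day 3, with overlap, and 3.25% ± 0.307 in WT and 1.92% ± 0.184 in DKI on day 6, without overlap. Their median log2 difference on day 6 was -0.85, with 11 of 11 fitted genes below 0, against 66.5% of all genes, and 10 of 11 without overlap and lower in DKI, against 26.6%, but none was called (smallest adjusted p = 0.0505, that of ND1). Their listed levels were uneven, with ATP8 at most 2.28 RPKM and COX1 at 1781 to 4165 RPKM, and are uncertain too. TCA cycle genes had medians of -0.30 on day 3 and -0.24 on day 6, and 1 of 16 and 1 of 15 was called on each day. It was Pcx, pyruvate carboxylase, which replenishes the cycle (log2 difference -1.41, SE 0.18, adjusted p = 0.0119 on day 3, and -1.44, SE 0.29, adjusted p = 0.0393 on day 6). With the replicate block the day 6 call of Pcx was lost (adjusted p = 0.0603). Subunits of the mitochondrial ribosome had medians of -0.26 and -0.21 with 0 of 75 called on either day by limma, and 15 and 12 at an unadjusted p under 0.05. The day 3 median was -0.12 without DKI replicate 1 and -0.11 without replicate 1 of both genotypes, and the day 6 median was -0.13 without DKI replicate 3 and -0.06 with either library centring or quantile normalization. Subunits of the cytosolic ribosome, which is no part of the mitochondrion, had larger medians of -0.63 and -0.73, with 2 of 80 and 5 of 82 called, and the day 3 median was -0.41 without DKI replicate 1 and -0.31 without replicate 1 of both genotypes. Import genes had medians of -0.24 and -0.21 and inner membrane carriers -0.39 and -0.44, with none called among 20 and 19, and 11 and 11 fitted, but 3 and 4, and 1 and 2, at an unadjusted p under 0.05. Assembly factors of complexes II to V had medians of -0.17 and -0.14, with Tmem70, an ATP synthase assembly factor, called on day 3 (log2 difference -0.77, SE 0.17, adjusted p = 0.0482, and 0.076 with the replicate block) and none on day 6, where 5 had an unadjusted p under 0.05.

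From day 0 to day 3 in WT, 10 of 29 fitted assembly factors of complexes II to V were called higher and 0 lower, against 20.3% and 22.8% of all genes. In DKI 3 were higher and 0 lower, against 13.1% and 21.1%. The regulators that follow have the same background. Of 15 regulators of mitochondrial gene expression, 3 rose and 4 fell in WT and 1 rose and 4 fell in DKI. Among them Nrf1, a transcription factor of respiratory chain genes, fell in WT from 15.2, 14.8 and 17.7 RPKM to 5.39, 5.39 and 5.44 RPKM (log2 change -1.40, SE 0.14, adjusted p = 0.000464), and in DKI by 1.25 on the log2 scale (adjusted p = 0.00254). Gabpa, another such factor, fell in both (log2 changes -0.77 and -0.75). Ppargc1b, a coactivator of them, rose in WT from 0.469, 0.472 and 1.22 RPKM to 2.38, 2.68 and 5.49 RPKM (log2 change 1.36, SE 0.32, adjusted p = 0.0122) and by the same 1.36 in DKI (adjusted p = 0.0279). Its relative Ppargc1a did not exceed 0.0364 RPKM. The receptor Esrra rose in WT by 0.79 on the log2 scale (adjusted p = 0.0118), and Myc rose by 1.05 (adjusted p = 0.0327). Tfam, which packages mitochondrial DNA, had a log2 change of -0.44 in WT, under the fold limit. Of the 15 regulators none was called between genotypes on day 3 or day 6. At an unadjusted p under 0.05 there were 0 of 15 on each of these days. Stat5a was lower in DKI on day 3, at 30.2, 58.0 and 39.7 RPKM in WT and 9.37, 13.4 and 14.4 RPKM in DKI (log2 difference -1.67, SE 0.28, adjusted p = 0.0224). Stat5b was at 17.1, 25.2 and 22.8 RPKM against 14.8, 12.6 and 16.5 RPKM (log2 difference -0.53, adjusted p = 0.143). Since the knock-in alters the protein, these levels do not check the genotype labels.

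All 21 cell cycle genes were called lower in WT between day 0 and day 3, against 22.8% of all genes, and 19 of 21 in DKI, against 21.1%, with median log2 changes of -1.87 and -1.79. Between genotypes 0 of 21 were called by limma on day 3 or day 6, against 7.42% and 7.54% of all genes, and 1 and 0 had an unadjusted p under 0.05, against 26.5% and 28.2%. The part of cell division in the levels of the respiratory chain genes was not tested.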

How the data were processed

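Poly(A)-selected RNA libraries of 250 to 400 bp fragments were sequenced on an Illumina HiSeq2000 with single-end reads. The authors aligned reads to mm10 with Subread and counted them over RefSeq genes with featureCounts, in versions not given in the sources used here (nor are strand and multimapping settings), and deposited RPKM values, 1 column for each of 18 libraries, with 0 columns left unused. From RPKM, log2(RPKM + 1) was fitted with limma 3.58.1 (R 4.3.3, eBayes with trend, two-sided), without covariates, over genes with a mean above 2 RPKM in at least 1 group compared. A call needed a fold above 1.5 with a limma p under 0.05 after Benjamini-Hochberg adjustment, limits taken from the study, whose own count-based test does not suit RPKM. Fold changes on this scale understate those of low genes. Depth was estimated from the smallest values of 1111 single-exon receptor genes (within 0.05, 69 of 71 further low values came out as whole reads), and a floor covers counting error only.

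The numbers 1 to 3 pair the genotypes within a day: the deviations of same-numbered libraries from their group means correlated at 0.686 to 0.865 on day 0, 0.163 to 0.369 on day 3 and 0.338 to 0.413 on day 6. They also pair day 3 with day 6 (0.125 to 0.68 in WT and 0.32 to 0.743 in DKI), but not day 0 with day 3. The study describes these RNA data as combined from 3 independent experiments. Whether libraries came from separate mice is not given in the sources used here, so p-values measure only the spread between these samples, which may be technical.

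The members, gene lists and tests were chosen with earlier results of these data known. Named were the 4 Sdh genes, the 3 highest members of each other complex, in each comparison and direction the 3 largest called changes (or, with none called, the smallest p), isoforms and 10 context genes; Atp5s, Atp5sl, Ndufs8, Ndufv3, Ndufaf2, Ndufaf4, Uqcr11, Cox7c, Cox7b2, Ndufab1, Pcx, Tmem70 and the mitochondrial ND1 and ATP8 were added after their values were seen. Identity between transcripts was searched with BLAST+ 2.17.0 in GENCODE M21, and 20082 gene IDs matched RefSeq. Data were simulated with the means and spreads of the day 3 genotype comparison (9566 genes fitted), with 50 genes changed at each fold. At an adjusted limma p under 0.05, without the fold limit, 8% of 1.5-fold, 40% of 2-fold and 80% of 4-fold changes were recovered. In the simulated data 120 genes were called, against 723 in the real comparison, so recovery there may differ. Alternatives were the replicate block, library centring, quantile normalization, no filter, a pseudocount of 0.1, all 18 libraries in 1 fit, leaving out each library, and leaving out replicate 1.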

Additional observations from a re-analysis of the deposited data

How the results depend on the processing

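The number of respiratory chain genes called was recomputed under 128 alternatives and stayed within 1.5 times of the reported one in 106. For DKI against WT on day 3 (0 called) it was 1 with quantile normalization and 4 with all 18 libraries in 1 fit, and 0 without any single library. On day 6 (1 called) it was 0 with the replicate block, with library centring, with quantile normalization and without the filter, and 7 with all libraries in 1 fit. With 1 library left out it was 0 to 3, at 0 without WT replicate 1 or 3 or DKI replicate 1 or 3, and 3 without DKI replicate 2, and it was 0 without replicate 1 of both groups. For DKI from day 0 to day 3 (5 called) it was 8 with centring and 3 without the filter, and 2 to 5 with 1 library left out, falling to 2 without DKI day 0 replicate 1 or 3 and to 3 without DKI day 0 replicate 2 or DKI day 3 replicate 2. For WT over the same days (9 called) it was 7 to 13. For the difference between genotype effects it was 0 to 1 on day 3, at 1 without DKI day 3 replicate 3, and 0 to 2 on day 6, at 2 without DKI day 6 replicate 2 and 1 without WT day 6 replicate 2. The replicate block changed no other count of calls by over 1.5 times, although in time comparisons, where same-numbered libraries share only a number from day 0 to day 3, it lost the calls of Cox6b2 and Atp5s and gained Ndufa4 and Uqcr10 in WT, and lost Uqcrfs1 and gained Ndufb3 in DKI. Of 117 refits of the named calls, 93 kept the call, 24 lost it and 0 reversed. The causes were not tested. Changes of 1.5-fold were rarely recovered at this sample size on simulated data, in which fewer genes were called than in the real comparison. A member that was not called may still have changed.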
